A study of Phyllostachys violascens with 16 samples.

Results

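The AP2/ERF genes of Lei bamboo (Phyllostachys violascens) described here are the 190 of 50936 annotated genes whose database description names an ethylene-responsive transcription factor, a dehydration-responsive element-binding protein, DREB, CBF, an AP2-like factor or an AP2/ERF domain. Edible young shoots 30 to 40 cm tall were packed in polyethylene bags, which held the humidity at about 60 to 70%, and kept at 4 °C. The middle 10 cm of 6 shoots was pooled for each RNA library, and 4 biological repeats of 30 shoots were followed at 0d, 2d, 6d and 20d, giving 16 libraries. The labels give the storage at 4 °C for the 0d libraries as well. Here 0d is read as the start of storage, and whether the 0d shoots had been packed is not stated. No shoots kept at another temperature were analysed here, so cold and time after harvest cannot be told apart. The comparisons below ask which members of the family changed in level during storage, set against 0d, and between successive times.

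AP2/ERF proteins are plant transcription factors named for the DNA-binding domain they share. The DREB branch binds the dehydration-responsive element: DREB1 proteins, also called CBF, are known from Arabidopsis and rice as early cold-induced activators of protective genes, and DREB2 proteins are better known from drought, salt and heat. The ERF branch holds ethylene-responsive activators, repressors that carry an EAR motif, low-oxygen factors of the RAP2-2 type and cytokinin response factors. The AP2 branch, with a double DNA-binding domain, holds AINTEGUMENTA, its AIL relatives and BABY BOOM, which are known in Arabidopsis for growth and for meristem and embryo identity. A description names the closest database entry, not a shown function of the bamboo gene. Several members share a description, and how reads common to near-identical copies were assigned is not stated, so the split of a level between such copies is uncertain.

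By their descriptions, 24 genes were DREB/CBF, 128 ERF, 30 AP2, 6 RAV (an AP2/ERF domain joined to a B3 domain) and 1 an unspecified AP2/ERF protein. The remaining gene, PH02Gene06674, was described as a CBF1-interacting corepressor and is not an AP2/ERF factor. It stays in the counts over the rule and was called in none of the comparisons. Genes described as ERF038, ERF039, RAP2-13 or RAP2-9 belong to the DREB subfamily in Arabidopsis, but were counted as ERF here because that is how the annotation words them.

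Of the 190 genes, 67 had a mean of at least 1 FPKM (fragments per kilobase of transcript, scaled to library size) over the 16 libraries and were tested, among 24944 genes tested in all. The tested members were 8 DREB/CBF, 44 ERF, 10 AP2 and 4 RAV genes and PH02Gene06674. Of the other 123, 47 had no count in any library and 14 reached a mean of 1 FPKM at one of the times. A gene that was low at every time but one passes this minimum only through that time, so the counts of calls below describe the tested members and not the whole family. Library totals ran from 51711694 to 64859188 deposited counts. Shoot-type marker genes were present at every time but fell in summed level, with 643 to 666 FPKM at 0d, 456 to 458 at 2d, 445 to 450 at 6d and 414 to 419 at 20d over 47 genes, of which 7 had no count, while the 5 root-type genes summed to at most 0.381 FPKM in any library. Flower-type marker genes also fell in summed level, with 227 to 242 FPKM at 0d, 191 to 198 at 2d, 176 to 182 at 6d, then 134 to 140 at 20d over 45 genes, of which 20 had a mean of at least 1 FPKM and 11 had no count. The 2 vascular-type genes summed to at most 1.74 FPKM in any library. In pooled tissue, fewer cells of a type and less RNA per cell cannot be told apart, and the part of tissue makeup in the results below was not tested.

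Summed over the family, the level was 2160 ± 20.7 FPKM at 0d, 1930 ± 24.5 at 2d, 1880 ± 29.2 at 6d, then 2150 ± 19.1 at 20d (SD, n = 4 each). The 4 most abundant members, all described as ethylene-responsive transcription factor 1 or 1-like, made up 52.7% of it at 2d, against 59.3% at 0d. The classes behaved differently underneath. DREB/CBF genes summed to 110 ± 0.495 FPKM at 0d, 186 ± 2.59 at 2d, 159 ± 7.34 at 6d, then 115 ± 1.69 at 20d. AP2 genes followed the same course, with 79.0 ± 1.54, 192 ± 3.58, 149 ± 3.17 and 78.8 ± 2.40 FPKM at the same 4 times. ERF genes ran the other way, with 1900 ± 18.6 FPKM at 0d, 1480 ± 22.5 at 2d, 1520 ± 19 at 6d, then 1940 ± 18.7 at 20d. RAV genes were lower late, with 72.5 ± 2.93 FPKM at 0d, 70.0 ± 4.13 at 2d, 49.8 ± 2.15 at 6d, then 19 ± 0.913 at 20d. These sums are on the FPKM scale, which follows library totals, and not on the scale of the fits below. With scaling by totals, the median log2 change of all genes was -0.26 at 2d, -0.21 at 6d and -0.30 at 20d, each against 0d. A fall of that size in a sum is no more than the shift of the median gene. The sums are also dominated by a few genes: the DREB/CBF course is largely that of PH02Gene41094 and the AP2 course that of PH02Gene22504, both given below.

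Changes were fitted for all tested genes with edgeR's quasi-likelihood test, and a gene is called where the Benjamini-Hochberg adjusted p over all tested genes is under 0.05 and the fold is at least a doubling (log2 of 1). At 2d against 0d, 14 members were called higher and 19 lower, 49.3% of the 67, while 31.1% of all tested genes were called. At 6d against 0d, 13 were higher and 20 lower, again 49.3%, beside 38.4% of all genes. At 20d against 0d, 16 were higher and 18 lower, 50.7% beside 44.0%. Between 2d and 6d the counts were 12 higher and 7 lower at 6d, 28.4% beside 15.1% (6.94% higher and 8.14% lower), and between 6d and 20d they were 15 higher and 15 lower at 20d, 44.8% beside 26.9%. The median log2 change of the 67 members was -0.07 at 2d, 0.13 at 6d and -0.02 at 20d against 0d, beside -0.00, -0.02 and 0.02 for all tested genes, so the family as a whole had no common direction.

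The 3 main classes split differently between higher and lower. ERF calls leaned to lower levels at 2d, with 7 higher and 16 lower, and at 6d, with 6 and 17. At 20d they were 11 and 14. Of all genes, 18.1%, 21.6% and 24.5% were called lower at 2d, 6d and 20d. Calls over all tested genes leaned lower too, with 42.0%, 43.7% and 44.3% of them higher at those times. The ERF split at 20d was close to that of all genes. Of the lower ERF calls, 5 at each time were of genes described as ERF038 or ERF039, and 1, 2 and 1 of RAP2-13 genes. Among the higher calls at 20d was PH02Gene17247, described as RAP2-9-like. Genes so named belong to the DREB subfamily in Arabidopsis, so the lean at 2d and 6d rests in part on the wording of the annotation. At 20d the higher ERF calls outnumber the lower ones when genes so named are left out. AP2 calls were mostly higher, with 4 higher and 0 lower at 2d, 4 and 1 at 6d, and 3 and 2 at 20d, where 13.1%, 16.8% and 19.5% of all genes were called higher. DREB/CBF calls were 2 higher and 2 lower at 2d, 2 and 1 at 6d, and 2 and 0 at 20d. RAV calls were 1 higher and 1 lower at 2d and at 6d, and 0 and 2 at 20d. The median log2 change at 2d, 6d and 20d was -0.44, -0.21 and -0.35 over the 44 ERF genes, 0.77, 0.94 and 0.55 over the 10 AP2 genes, and 0.20, 0.47 and 0.12 over the 8 DREB/CBF genes.

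**Figure D1:**
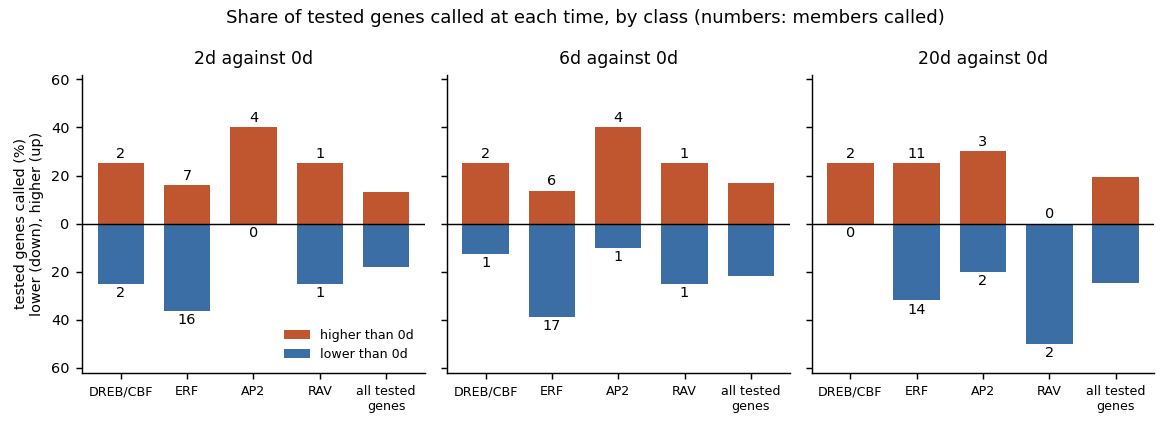
Percentage of tested genes called higher (up) or lower (down) than 0d at 2d, 6d and 20d, for each class of the family and for all 24944 tested genes, with the number of members called at each bar. ERF has more members lower than higher at each time, with 16, 17 and 14 lower, the RAV bar at 20d stands for 2 of 4 members lower, and AP2 bars reach furthest up at 2d and 6d, with 4 members higher at each.

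Across the 4 times, 48 of the 67 members changed by at least a doubling between their lowest and highest time (F-test over the times, adjusted p under 0.05), 71.6% beside 64.6% of all tested genes. Of these 48, the highest time was 0d for 20, 2d for 12, 6d for 4 and 20d for 12. The 0d share of 41.7% compares with 43.7% of all changing genes. The 2d share of 25% compares with 14.4% of all changing genes, the 6d share of 8.33% with 15.6% and the 20d share of 25% with 26.3%. Of the 33 changing ERF genes, 17 were highest at 0d, 51.5% beside the same 43.7%. Of the 48, 13 were lowest at 20d, 27.1% beside 36.5% of all changing genes. Of the 7 changing AP2 genes, 1 was highest at 0d and 5 were lowest there, where 43.7% of all changing genes were highest and 27.5% lowest. Counted by gene, 7 of the 67 members were called higher at all 3 storage times, 10.4% beside 7.1% of all tested genes. A further 10 were called lower at all 3, 14.9% beside 10.2%, and 5 were called in both directions at different times, 7.46% beside 2.39%.

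**Figure D2:**
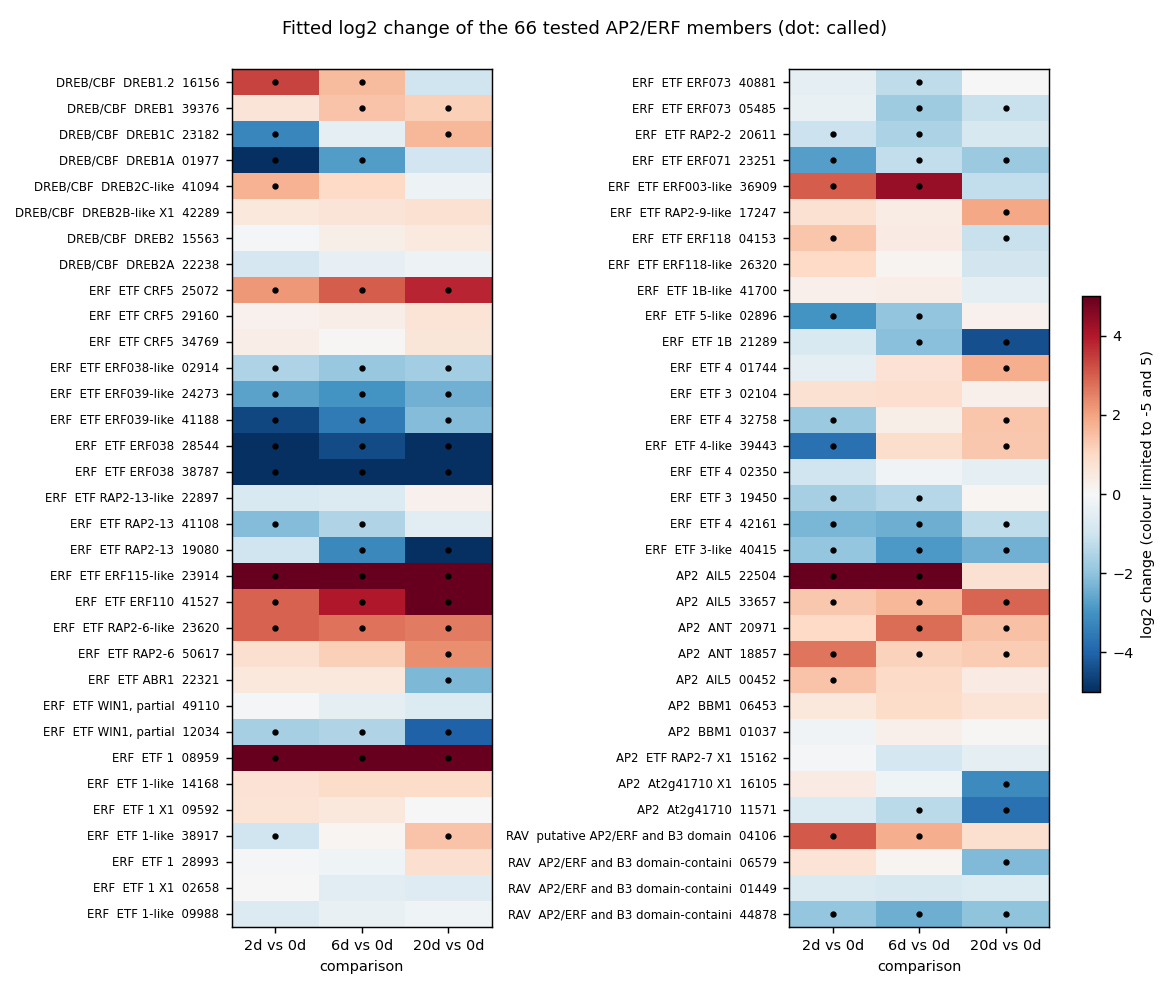
Fitted log2 change of the 66 tested AP2/ERF genes at 2d, 6d and 20d against 0d, grouped by class and subgroup, with red for higher and blue for lower than 0d, colour limited to -5 and 5, and a dot on each called change. ETF stands for ethylene-responsive transcription factor, and the digits are the last 5 of the gene identifier. All 5 ERF038 and ERF039 genes are blue with a dot at each time, while the ANT and AIL5 genes are red.

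DREB1 and CBF genes, the class best known for cold, did not move together. Of the 14 genes so described, 4 were tested, and each had a different time course. PH02Gene16156, PH02Gene23182 and PH02Gene01977 passed the minimum of 1 FPKM only through their highest time, 2d, 20d and 0d in turn. Their peaks at those times were thus partly fixed in advance. PH02Gene39376, described as DRE-binding protein DREB1, had 5.58, 5.11, 5.38 and 5.12 FPKM at 0d, 6.94, 6.82, 6.38 and 7.39 at 2d, 12, 12.8, 12.5 and 12.5 at 6d, and 9.87, 9.82, 9.66 and 9.92 at 20d. Every storage library was above every 0d library, and the 6d libraries were the highest. Its log2 change was 0.63 at 2d, short of a doubling, then 1.41 (SE 0.07, adjusted p = 6.0e-16) at 6d and 1.20 (SE 0.07, adjusted p = 1.3e-14) at 20d, the last of which is 0.88 and not called when libraries are scaled by their totals.

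PH02Gene01977, a DREB1A gene, was nearly silent at 2d. It had 4.93, 5.86, 6.26 and 4.50 FPKM at 0d, 0, 0, 0 and 0.0551 at 2d, 0.694, 0.767, 0.635 and 0.600 at 6d, and 2.64, 1.80, 2.35 and 2.06 at 20d. No 2 times overlapped: the gene was highest at 0d, lowest at 2d and intermediate afterwards. The 2d libraries together held under 1 fragment, so the ratio of 279-fold lower at 2d than at 0d has a 95% counting interval of 37.3 to 8300, and that of 39.5-fold higher at 6d than at 2d one of 5.03 to 1220. At 6d the gene was still lower than at 0d, by a log2 change of -2.81 (SE 0.28, adjusted p = 1.8e-09). At 20d the change of -0.97 (SE 0.26) fell just short of a doubling, and reached it, at -1.29, with scaling by totals.

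PH02Gene23182, described as DREB1C, also dropped at 2d but ended above its starting level. It had 0.980, 1.46, 1.67 and 1.60 FPKM at 0d, 0, 0.203, 0.160 and 0.0911 at 2d, 0.615, 1.05, 0.929 and 0.989 at 6d, and 3.68, 3.66, 4.15 and 3.15 at 20d. All 2d libraries were below, and all 20d libraries above, those of every other time. The log2 change against 0d was -3.27 (SE 0.41, adjusted p = 8.6e-08) at 2d and 1.66 (SE 0.32, adjusted p = 4.0e-05) at 20d.

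PH02Gene16156, described as DREB1.2, did the opposite at 2d. It had 0.215, 0.0749, 0.507 and 0.573 FPKM at 0d, 2.83, 2.83, 3.59 and 3.32 at 2d, 0.970, 0.527, 1.48 and 0.729 at 6d, and 0.269, 0.0525, 0 and 0.249 at 20d. The 2d libraries stood above all others, while the 6d and 0d libraries overlapped. The log2 change was 3.40 (SE 0.58, adjusted p = 4.4e-05) at 2d and 1.57 (SE 0.58, adjusted p = 0.018) at 6d. The 6d call is lost without replicate 1 at 0d (adjusted p = 0.0547) or replicate 3 at 6d (adjusted p = 0.0661). At 20d the gene was not separable from 0d, with a log2 change of -0.98.

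The other 10 DREB1/CBF genes were too low to test. A run of 5 of them, PH02Gene07212 to PH02Gene07208, lies on scaffold 3 between positions 8110376 and 8159569 in the coordinates of the deposited annotation. Tandem CBF genes are known from other plants too. Their mean FPKM never exceeded 0.456 at any time. Among the 5, 4 had their highest mean at 20d, at 0.333 for PH02Gene07212, 0.279 for PH02Gene07211, 0.456 for PH02Gene07210 and 0.375 for PH02Gene07209, while PH02Gene07208 had 0.170 at 20d, against 0.201 at 0d. For PH02Gene07209 this was 15 fragments over the 20d libraries and 2.5 over the 0d libraries, a ratio of 7.66 with a counting interval of 1.81 to 34.4. A further 3 on scaffold 18 were at most 0.242 FPKM at any time. PH02Gene00580, an HvCBF11-like gene, averaged 0.752 FPKM at 0d, 0 at 2d, 0.170 at 6d, then 0.858 at 20d, and was at least 6.18-fold lower at 2d than at 0d against a floor of 3 fragments over the group. The earliest storage sample was at 2d, and earlier hours, when DREB1 genes of other plants respond to cold, were not analysed here.

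The most abundant DREB factors were DREB2 genes. PH02Gene41094, described as DREB2C-like, had 45.0, 43.4, 44.4 and 43.7 FPKM at 0d, 124, 123, 119 and 124 at 2d, 77.0, 72.7, 76.8 and 84.2 at 6d, and 29.2, 29.4, 30.9 and 30.9 at 20d. The 4 times did not overlap, with 2d highest and 20d lowest. Its log2 change was 1.73 (SE 0.04, adjusted p = 2.3e-23) at 2d, 0.99 (SE 0.04) at 6d, just under a doubling, and -0.24 at 20d. Between 6d and 20d it fell by 1.23. The 3 other tested DREB2 genes were called at no time. PH02Gene42289 (DREB2B-like) ranged from 42.2 to 46.2 FPKM at 20d, against 32.0 to 33.6 at 0d, a log2 change of 0.77. PH02Gene15563 (DREB2) ranged from 11.4 to 19.1 FPKM over all libraries. PH02Gene22238 (DREB2A) averaged 1.15 FPKM at 2d, against 2.49 at 0d, a log2 change of -0.85.

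**Figure D3:**
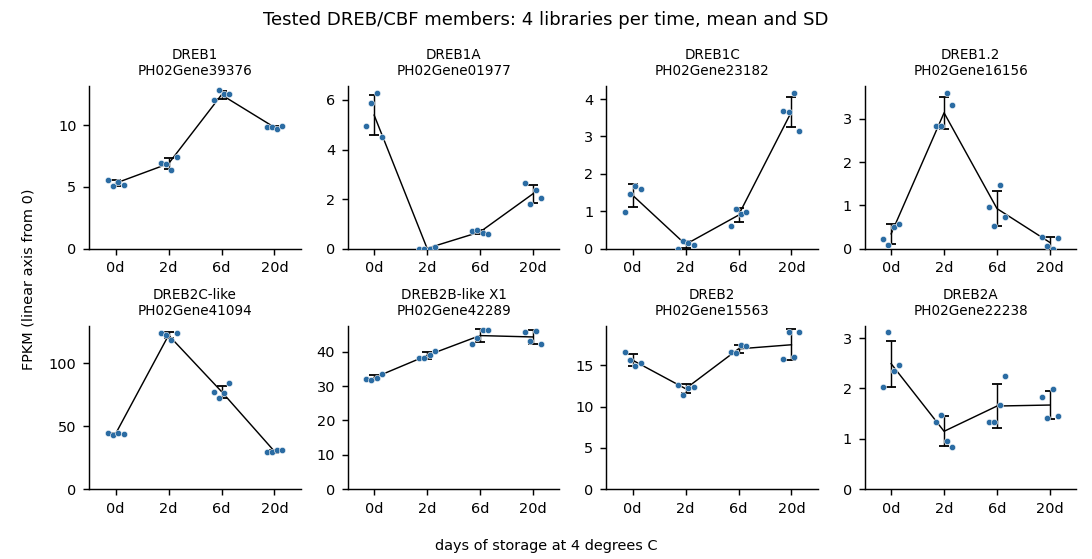
FPKM of the 8 tested DREB/CBF genes at 0d, 2d, 6d and 20d, with 1 point per library, the mean joined by a line and bars of 1 SD (n = 4 per time). DREB2C-like PH02Gene41094 peaks at 119 to 124 FPKM at 2d, DREB1A PH02Gene01977 is at or near 0 at 2d, and DREB1 PH02Gene39376 is highest at 6d.

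Genes that act around DREB/CBF factors in Arabidopsis and rice were read from lists of descriptions. Of 28 tested genes known to act upstream (ICE1, the HOS1 ligase that degrades it, COLD1, calmodulin-binding activators and SAPK kinases), 3 were higher and 5 lower at 2d, 5 and 6 at 6d, and 4 and 5 at 20d. Their shares called, 28.6%, 39.3% and 32.1%, lie near or under the background. Both ICE1 genes, whose Arabidopsis counterpart activates CBF genes, were higher at 20d: PH02Gene07293 averaged 138 FPKM at 20d, against 46.3 at 0d (log2 change 1.89), and PH02Gene12072 averaged 13.6 at 20d, against 4.06 at 0d (log2 change 2.05). The tested HOS1 genes differed. PH02Gene29540 was called lower at all 3 times, with 0.268 FPKM at 20d, against 2.60 at 0d. The more abundant PH02Gene27259 was called at no time, with 19.9 FPKM at 20d, against 29.3 at 0d (log2 change -0.24). PH02Gene37796 was called lower at 20d only, with 6.22 FPKM, against 21.3 at 0d.

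Genes of the kind that DREB factors activate in other plants leaned higher from 6d on. Of 17 tested dehydrin, late embryogenesis abundant, cold-regulated, galactinol synthase and raffinose synthase genes, 6 were higher and 3 lower at 2d, 10 and 1 at 6d, and 10 and 2 at 20d, shares of 52.9%, 64.7% and 70.6% beside 31.1%, 38.4% and 44.0% of all tested genes, with a median log2 change of -0.06, 1.54 and 1.16, the same with genes at 0 set to their bound. The dehydrin DHN1-like gene PH02Gene07648, a protein that protects cells during water loss, averaged 3.65 FPKM at 0d, 28.4 at 2d, 244 at 6d, then 47.9 at 20d. PH02Gene07646, a DHN3 dehydrin, was at 0 in all 0d libraries and averaged 0.459 FPKM at 2d, 7.05 at 6d, then 23.6 at 20d. PH02Gene11640, for raffinose synthesis (galactinol-sucrose galactosyltransferase), averaged 9.38, 112, 86.1 and 52.2 FPKM at the 4 times in order. The COR410 dehydrin PH02Gene01531 went the other way at 20d, with 8.33 FPKM against 50.5 at 0d. Whether any DREB gene acts on these genes was not tested.

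Among ERF genes, those described as ERF038 or ERF039, relatives of TINY in Arabidopsis, fell together. All 5 tested of 13 were called lower at 2d, 6d and 20d, where 18.1%, 21.6% and 24.5% of all tested genes were called lower. Their median log2 changes were -4.57, -3.54 and -2.42, the same with PH02Gene38787 at its bound at 20d. PH02Gene28544 and PH02Gene38787 passed the minimum of 1 FPKM only through 0d. A fall from 0d was thus fixed in advance for them, and the count over the group is no independent support for a shared fall. PH02Gene38787 (ERF038) had 11.4, 11.6, 10.7 and 9.06 FPKM at 0d, 0, 0.190, 0.215 and 0.148 at 2d, 0, 0, 0.0689 and 0.289 at 6d, and 0 in all 4 libraries at 20d. Every 0d library was far above every stored one. The log2 change was -5.88 (SE 0.66, adjusted p = 3.8e-06) at 2d and -6.54 (SE 0.70, adjusted p = 1.9e-06) at 6d, where the 6d value rests on 4.0 fragments and reads -8.35 without replicate 4 at 6d. At 20d the gene was at least 116-fold lower than at 0d.

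PH02Gene41188 (ERF039-like) had 12.2, 14.2, 13.0 and 12.7 FPKM at 0d, 0.409, 0.494, 0.443 and 0.473 at 2d, 0.950, 0.729, 1.17 and 1.06 at 6d, and 2.59, 2.07, 2.21 and 2.45 at 20d. It was lowest at 2d and below its 0d level at every storage time, with no overlap between times. Against 0d the log2 change was -4.57 (SE 0.15, adjusted p = 3.7e-19) at 2d, -3.54 (SE 0.14) at 6d and -2.16 (SE 0.13) at 20d. The most abundant of the group, PH02Gene24273 (ERF039-like), averaged 34.0 FPKM at 0d, 4.44 at 2d, 3.82 at 6d, then 5.13 at 20d. Its untested neighbour PH02Gene24274 (ERF039) lies 14557 bases away on scaffold 23 and averaged 0 FPKM at each storage time, against 3.39 at 0d, at least 25.3-fold lower at 2d than at 0d. PH02Gene38789 (ERF038-like), also untested, averaged 1.98 FPKM at 0d and 0, 0.0222 and 0.0214 at 2d, 6d and 20d.

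Of 3 tested genes described as RAP2-13, another DREB-subfamily name in Arabidopsis, 2 fell, on different schedules. PH02Gene19080 had 61.3, 62.3, 61.4 and 61.7 FPKM at 0d, 27.8, 26.5, 26.4 and 23.9 at 2d, 6.08, 5.77, 5.47 and 6.14 at 6d, and 0.623, 1.04, 0.199 and 0.444 at 20d. It was lower at each successive time, with no overlap. The log2 change was -0.99 (SE 0.15) at 2d, at the edge of the fold limit, -3.22 (SE 0.15, adjusted p = 8.8e-13) at 6d and -6.38 (SE 0.20, adjusted p = 2.0e-15) at 20d. PH02Gene41108 was lowest at 2d instead, with 23.5, 4.40, 7.39 and 12.6 FPKM on average at the 4 times, and PH02Gene22897 was not called at any time.

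Most genes described as ethylene-responsive transcription factor 3 or 4 were lower at 2d, and some recovered. ERF3 and ERF4 of Arabidopsis carry the EAR repression motif. Of 8 tested, 0 were higher and 5 lower at 2d, 0 and 3 at 6d, and 3 and 2 at 20d, shares called of 62.5%, 37.5% and 62.5% beside 31.1%, 38.4% and 44.0% of all tested genes. From 6d to 20d 4 rose and 0 fell, 50% beside 26.9%. PH02Gene39443 (4-like) had 2.42, 2.54, 3.31 and 2.63 FPKM at 0d, 0.191, 0.150, 0.0601 and 0.259 at 2d, 3.79, 5.79, 4.17 and 3.96 at 6d, and 6.34, 4.99, 5.60 and 5.60 at 20d. The 2d libraries were below all others, and those of 6d and 20d lay above 0d and overlapped each other. Its log2 change was -3.71 (SE 0.28, adjusted p = 1.1e-11) at 2d, 0.87 at 6d and 1.35 (SE 0.21, adjusted p = 2.7e-06) at 20d, and 4.58 at 6d against 2d. PH02Gene32758 (4) had the same shape at a higher level, averaging 18.6 FPKM at 0d, 4.35 at 2d, 20.2 at 6d, then 39.1 at 20d. PH02Gene42161 (4) stayed below its 0d level, with 40.6 FPKM at 0d, 7.05 at 2d, 6.55 at 6d, then 13.5 at 20d.

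The most abundant members of the family were described as ethylene-responsive transcription factor 1. PH02Gene02658 had 620, 618, 623 and 610 FPKM at 0d, 517, 534, 507 and 517 at 2d, 360, 371, 373 and 365 at 6d, and 312, 331, 320 and 317 at 20d. Its FPKM was lower at each time with no overlap, yet the fitted log2 changes were -0.00, -0.57 and -0.63 and none was called. The difference lies in the scale: with libraries scaled by their totals, as FPKM is, the median of all genes shifts by -0.26 at 2d, -0.21 at 6d and -0.30 at 20d, and the fitted changes here are relative to a median near 0. The share of called genes that are higher at 2d is 42.0% on the fitted scale and 28.5% with totals.

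PH02Gene38917 (1-like) dipped and then became the most abundant member. It had 313, 319, 318 and 334 FPKM at 0d, 141, 132, 131 and 132 at 2d, 317, 300, 307 and 307 at 6d, and 700, 696, 688 and 686 at 20d. The 0d and 6d libraries overlapped, 2d was below and 20d above them. The log2 change was -1.01 (SE 0.02, adjusted p = 4.3e-22) at 2d, 0.11 at 6d and 1.42 (SE 0.02, adjusted p = 1.4e-25) at 20d. The 2d value sits on the fold limit and drops under it, to -0.99, without replicate 4 at 0d and to -0.997 without replicate 3 at 2d. PH02Gene09592 had 222, 220, 219 and 215 FPKM at 0d, 295, 307, 296 and 298 at 2d, 274, 282, 271 and 286 at 6d, and 174, 174, 179 and 168 at 20d, with log2 changes of 0.70, 0.52 and -0.02 that did not reach the fold limit. Its 2d libraries were highest and its 20d libraries lowest, with no overlap between times.

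PH02Gene08959, described as factor 1, was almost absent at 0d and called higher at every storage time. It passed the minimum of 1 FPKM only through 20d, so its rise at 20d was partly fixed in advance. It had 0.0316, 0, 0.0914 and 0 FPKM at 0d, 1.17, 1.05, 0.913 and 0.948 at 2d, 1.78, 1.56, 1.70 and 1.9 at 6d, and 8.01, 7.84, 8.66 and 8.53 at 20d. No 2 times overlapped. Against 0d the log2 change was 5.10 (SE 0.38, adjusted p = 2.4e-09) at 2d, 5.79 at 6d and 8.18 (SE 0.36, adjusted p = 9.3e-13) at 20d, from 5.5 fragments over the 0d libraries. Without replicate 3 at 0d these values become 6.46, 7.15 and 9.53. PH02Gene21289, described as 1B, which in Arabidopsis is a target of the ethylene regulator EIN3, ran down instead: 8.91, 7.34, 8.53 and 7.15 FPKM at 0d, 3.32, 4.33, 3.5 and 4.51 at 2d, 1.63, 1.51, 1.66 and 1.86 at 6d, and 0.0503, 0.309, 0.706 and 0.0457 at 20d. The times did not overlap, and the log2 change reached -4.41 (SE 0.43, adjusted p = 2.0e-08) at 20d, or -5.34 without replicate 3 at 20d.

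All 4 tested members named after low-oxygen factors of Arabidopsis (RAP2-2, ERF071 and ERF073) were called lower at 6d, where 21.6% of all tested genes were called lower. Not all of them were called at 2d or at 20d. Taken with the 7 tested genes described as ethylene-responsive transcription factor 1 or 1-like, which were counted in the same group, 1 of 11 was higher and 3 lower at 2d, 1 and 4 at 6d, and 2 and 2 at 20d. The shares called, 36.4%, 45.5% and 36.4%, lie near the 31.1%, 38.4% and 44.0% of all tested genes, and the higher calls were those of PH02Gene08959 at all 3 times and of PH02Gene38917 at 20d. PH02Gene23251 (ERF071) averaged 15.8 FPKM at 0d, 1.97 at 2d, 6.03 at 6d, then 3.54 at 20d, and was called lower at all 3 times. PH02Gene05485 (ERF073) averaged 7.95, 5.17, 2.06 and 2.98 FPKM at the 4 times and was called lower at 6d and 20d. PH02Gene40881 (ERF073) was called lower at 6d, with 9.63 FPKM against 26.5 at 0d, and PH02Gene20611 (RAP2-2) at 2d and 6d, with its 2d call lost without replicate 3 at 0d (log2 change -0.99) or replicate 1 at 2d (-0.996). In the list of genes known to respond to or sense low oxygen, 11 were tested, 0 were higher at any time, and 3, 2 and 6 were lower at 2d, 6d and 20d, shares of 27.3%, 18.2% and 54.5% beside 18.1%, 21.6% and 24.5% of all tested genes called lower. Among them, the alcohol dehydrogenase gene PH02Gene33378 averaged 36.7 FPKM at 20d, against 141 at 0d. Gas inside the bags was not analysed here.

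Several tested ERF genes of one branch rose and stayed high. Of 5 tested genes described as ERF110, ERF115, ABR1 or RAP2-6, a branch known in Arabidopsis for wound and stress responses, 3 were higher and 0 lower at 2d and at 6d, and 4 higher and 1 lower at 20d. The shares called were 60%, 60% and 100%, beside 31.1%, 38.4% and 44.0% of all tested genes. PH02Gene41527 (ERF110) had 0.161, 0.153, 0.177 and 0.250 FPKM at 0d, 1.76, 1.10, 1.15 and 1.06 at 2d, 2.61, 2.20, 2.90 and 3.31 at 6d, and 6.18, 5.54, 5.98 and 6.97 at 20d. It was higher at each successive time with no overlap, with log2 changes of 2.96 (SE 0.22, adjusted p = 6.5e-12), 4.00 (SE 0.22) and 5.30 (SE 0.22, adjusted p = 2.5e-17). PH02Gene23620 (RAP2-6-like) had 0.618, 0.502, 0.323 and 0.342 FPKM at 0d, 3.40, 3.32, 1.99 and 3.17 at 2d, 2.49, 2.89, 2.1 and 3.22 at 6d, and 2.15, 2.24, 2.06 and 2.53 at 20d. All stored libraries were above 0d and overlapped one another, with log2 changes of 2.94 (SE 0.25), 2.72 (SE 0.25) and 2.60 (SE 0.25). PH02Gene23914 (ERF115-like), in Arabidopsis a regulator of stem cell division after damage, averaged 1.98 FPKM at 2d, against 0.0248 at 0d, a ratio of 85.9 with a counting interval of 14.4 to 451. Its fitted log2 change at 2d of 6.29 reads 9.50 without replicate 3 at 0d, the one 0d library with counts. PH02Gene22321 (ABR1) was the one that fell, to 1.30 FPKM at 20d, against 7.75 at 0d.

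The cytokinin response factor gene PH02Gene25072 (CRF5) rose at all 3 storage times. It had 9.59, 8.75, 9.10 and 10.4 FPKM at 0d, 37.1, 40.9, 31.5 and 33.5 at 2d, 64.6, 65.8, 67.3 and 79.2 at 6d, and 105, 116, 102 and 107 at 20d. The 4 times did not overlap, and the log2 change was 2.16 (SE 0.09, adjusted p = 3.7e-16) at 2d, 3.04 (SE 0.09) at 6d and 3.81 (SE 0.09, adjusted p = 4.8e-21) at 20d. The other 2 CRF5 genes, PH02Gene29160 and PH02Gene34769, were not called, with log2 changes at 20d of 0.69 and 0.60. Of the 2 genes described as WIN1, a regulator of cuticular wax in Arabidopsis, PH02Gene12034 averaged 9.27, 2.44, 2.89 and 0.435 FPKM at the 4 times and was called lower at each storage time, while PH02Gene49110 was called at none.

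**Figure D4:**
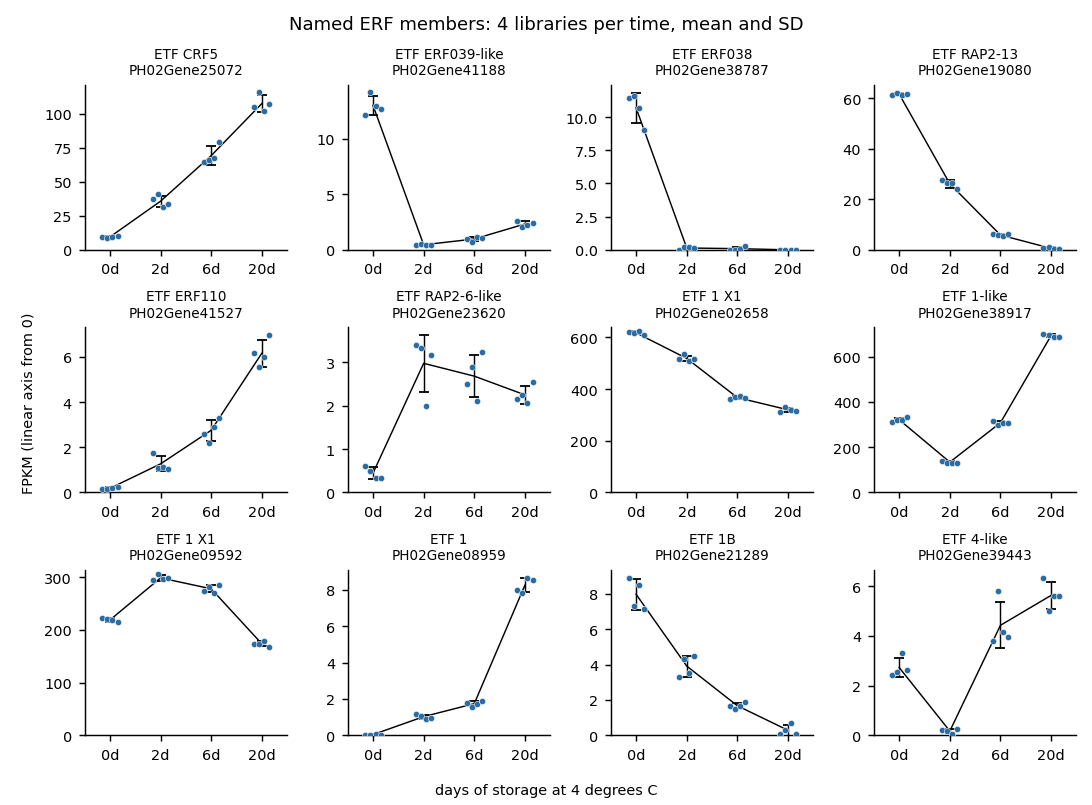
FPKM of 12 ERF genes at 0d, 2d, 6d and 20d, with 1 point per library, the mean joined by a line and bars of 1 SD (n = 4 per time); ETF stands for ethylene-responsive transcription factor. ERF038 and ERF039-like drop at 2d, RAP2-13 falls step by step, CRF5 and ERF110 climb to 20d, and PH02Gene38917 dips to 131 to 141 FPKM at 2d before reaching 686 to 700 at 20d.

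Of 29 tested genes for ethylene synthesis and early signalling, 4 were higher and 5 lower at 2d, 5 and 5 at 6d, and 4 and 10 at 20d, shares of 31.0%, 34.5% and 48.3% beside 31.1%, 38.4% and 44.0% of all tested genes. The ACC oxidase genes PH02Gene22088 and PH02Gene22087, for the last step of ethylene synthesis, peaked at 2d with 324 and 122 FPKM, against 90.8 and 33.7 at 0d, and were down to 1.63 and 0.672 FPKM at 20d. Other tested ACC oxidase genes differed. PH02Gene21671 and PH02Gene21368 were called lower at 2d, with 2.63 and 1.01 FPKM, against 37.1 and 3.31 at 0d. PH02Gene41618 was called lower, and PH02Gene02494 higher, at 6d and 20d. The gene for EIN2, PH02Gene33717, a central signalling protein, was lower at all 3 times, with 4.20 FPKM at 20d, against 13.9 at 0d. Among tested EIN3-like genes, PH02Gene34932 was called higher at all 3 times and PH02Gene15448 at 6d and 20d, while the others were called at no time. Of 5 tested genes for TOPLESS-related and SAP18 co-repressors, which in Arabidopsis work with EAR-type repressors, 0 were called at 2d or 6d and 1 was lower at 20d. The shares called were 0%, 0% and 20%, beside 31.1%, 38.4% and 44.0% of all tested genes. PH02Gene39485 (SAP18) averaged 0.22 FPKM at 2d, against 2.35 at 0d, a log2 change of -3.03 that was not called.

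In the AP2 class, PH02Gene22504, an AIL5 gene, rose steeply and came back down. It had 1.98, 1.85, 1.59 and 1.9 FPKM at 0d, 115, 113, 116 and 117 at 2d, 57.8, 54.6, 57.2 and 58.6 at 6d, and 2.58, 2.54, 2.41 and 2.37 at 20d. The 2d libraries were highest, the 6d libraries next, and those of 20d were close to but all above those of 0d. The log2 change was 6.22 (SE 0.05, adjusted p = 1.5e-31) at 2d, 5.13 (SE 0.05, adjusted p = 4.4e-30) at 6d and 0.75 at 20d, and the gene fell by 4.39 on the log2 scale between 6d and 20d. AIL5 is known in Arabidopsis from growth of young organs and from germination.

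The other growth-type AP2 genes rose less. Of 7 tested ANT, AIL5 and BBM1 genes, 4 were higher at 2d, 4 at 6d, then 3 at 20d, and 0 were lower at any of these times. The shares called were 57.1%, 57.1% and 42.9%, beside 31.1%, 38.4% and 44.0% of all tested genes, so the 20d share lies near that of all genes. Of all tested genes, 13.1%, 16.8% and 19.5% were called higher at those times. PH02Gene18857 (ANT) had 1.22, 0.850, 1.12 and 1.19 FPKM at 0d, 5.75, 6.61, 5.89 and 5.40 at 2d, 1.99, 2.25, 2.43 and 2.02 at 6d, and 2.5, 2.21, 1.9 and 2.04 at 20d. Every stored library was above every 0d library, and 6d and 20d overlapped. Its log2 change was 2.68 (SE 0.12, adjusted p = 3.9e-16) at 2d, 1.15 (SE 0.12) at 6d and 1.29 (SE 0.12) at 20d, and with scaling by totals the last 2 became 0.96 and 0.97 and were not called. PH02Gene33657 (AIL5) had 1.54, 1.16, 0.805 and 1.46 FPKM at 0d, 2.57, 2.63, 2.55 and 2.89 at 2d, 3.87, 3.25, 3.09 and 3.74 at 6d, and 7.11, 7.42, 7.69 and 7.59 at 20d. Unlike PH02Gene22504 it was highest at 20d, with no overlap between times and log2 changes of 1.35 (SE 0.15), 1.66 (SE 0.15) and 2.90 (SE 0.15, adjusted p = 2.2e-15). PH02Gene20971 (ANT) was highest at 6d instead, with 2.82 FPKM, against 0.453 at 0d.

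The tested BABY BOOM genes were the abundant AP2 members before storage and were called at none of the times. PH02Gene01037 (BBM1) had 38.6, 38.7, 38.7 and 36.4 FPKM at 0d, 28.3, 27.2, 28.4 and 29.1 at 2d, 37.7, 40.9, 40.3 and 41.5 at 6d, and 30.1, 30.9, 34.6 and 31.7 at 20d. Its 2d libraries were below all others, and those of 0d and 6d overlapped. PH02Gene06453 (BBM1) had 20.1, 20.1, 19.9 and 20.0 FPKM at 0d, 22.5, 23.2, 26.6 and 25.6 at 2d, 32.6, 34.7, 33.0 and 34.6 at 6d, and 25.7, 26.0, 26.6 and 26.4 at 20d. For that gene 0d was lowest and 6d highest, while 2d and 20d overlapped. The fitted log2 changes of PH02Gene01037 were -0.18, 0.25 and 0.05 and those of PH02Gene06453 were 0.54, 0.93 and 0.70. A further BBM1 gene, PH02Gene27330, was untested; it averaged 0 FPKM at 0d, 0.05 at 2d, 0.18 at 6d, then 1.26 at 20d, at least 67.1-fold higher at 20d than at 0d.

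The remaining AP2 genes were steady or fell late. PH02Gene16105, described by the Arabidopsis locus At2g41710, had 3.41, 2.77, 3.15 and 2.53 FPKM at 0d, 3.54, 3.13, 3.24 and 3.39 at 2d, 2.38, 2.56, 1.86 and 2.32 at 6d, and 0.334, 0.183, 0.249 and 0.292 at 20d. The 20d libraries were far below the rest, and the log2 change at 20d was -3.17 (SE 0.16, adjusted p = 2.6e-15). PH02Gene11571, described by the same locus, was called lower at 6d as well as at 20d, with 0.218 FPKM at 20d, against 3.71 at 0d. PH02Gene15162 (RAP2-7), whose Arabidopsis counterpart delays flowering, was not called at any time. Of the 4 tested RAV genes, PH02Gene04106 was higher at 2d and 6d, with 9.84 FPKM at 2d, against 1.40 at 0d. PH02Gene44878 was lower at all 3 times, and PH02Gene06579 at 20d, with 6.45 FPKM, against 36.7 at 0d.

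**Figure D5:**
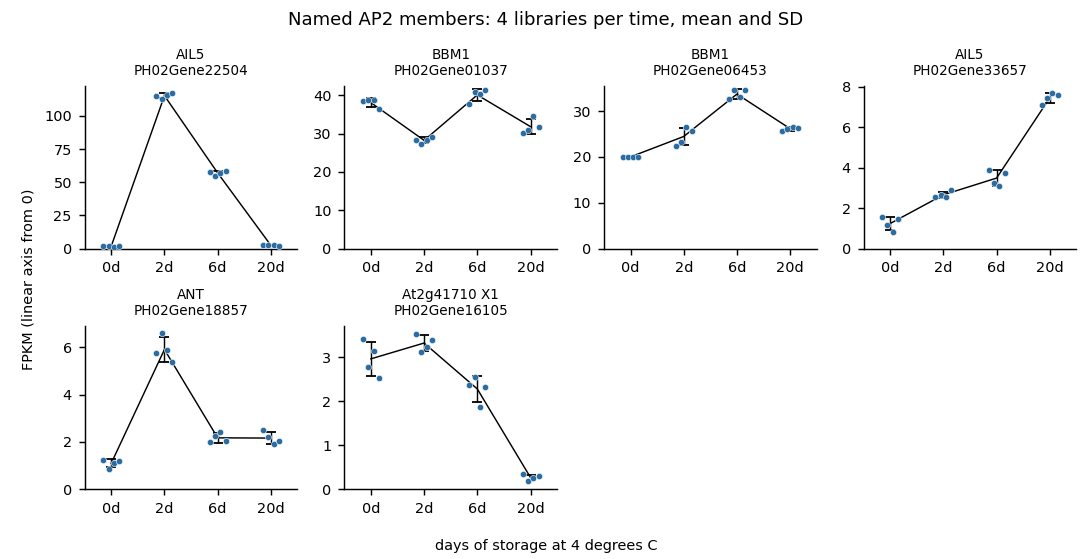
FPKM of 6 AP2 genes at 0d, 2d, 6d and 20d, with 1 point per library, the mean joined by a line and bars of 1 SD (n = 4 per time). AIL5 PH02Gene22504 stands at 113 to 117 FPKM at 2d and under 3 at 0d and at 20d, AIL5 PH02Gene33657 is highest at 20d, and both BBM1 genes stay between 19.9 and 41.5 FPKM.

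Of the 14 untested members that reached 1 FPKM at a time, some appeared only late. PH02Gene01222 and PH02Gene01223, both described as ERF109-like and 46039 bases apart on scaffold 18, averaged 2.27 and 1.38 FPKM at 20d, against 0.0165 and 0 at 0d. For PH02Gene01222 the ratio was 151, with a counting interval of 26.5 to 6000. PH02Gene04205, a DREB2A gene, averaged 1.97 FPKM at 20d, against 0.283 at 0d. Others were lost early: PH02Gene00442 (ERF003-like) averaged 1.88 FPKM at 0d, 0.214 at 2d and 0.0208 at 20d.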

How the data were processed

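RNA from 16 libraries (4 times, 4 per time) was sequenced on an Illumina NovaSeq 6000, per the labels. The deposited table of the whole series gives, per gene and library, FPKM made by the authors and an estimated count, also deposited, in whole numbers. Which aligner, counter and genome build made them is not given in the sources used here. The values 4 and 8 are the most frequent deposited counts, so 1 fragment was taken to add about 4 counts; dividing the counts by 4 was tried. Genes with a mean of at least 1 FPKM were fitted with edgeR 4.0.16 (quasi-likelihood, robust, TMM scaling, R 4.3.3) on the estimated counts, all 16 libraries in one fit. Calls needed a Benjamini-Hochberg adjusted p under 0.05 and a log2 change of at least 1 in size; SE is the log2 change over the root of F. Where a group held 3 fragments or fewer, ratios have exact (Clopper-Pearson) 95% intervals, and against a group at 0 they are bounds from a floor of 3 fragments per group; both cover counting error only. The fits were tested on simulated data. Precision is set by 4 pools per time, and p-values measure the spread between these pools.

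Members were sorted into classes by description. Within DREB/CBF, ERF and AP2, per-library values are given for the 3 largest called rises and falls at each storage time against 0d (mean of at least 2 FPKM, no overlap of libraries), the 3 most abundant genes, the largest called rise and fall between successive times, and all tested DREB1/CBF genes. Other genes were chosen after their values were seen. The members and lists were chosen with earlier results of these data known. Alternatives tried were DESeq2 1.42.0, limma 3.58.1 on log2(FPKM + 1), (FPKM + 0.1) and (FPKM + 5), other scalings, other minima, adjusted p alone, a replicate block, fits of 2 times only, and each library left out. Replicates differed by more than counting noise, so none was merged. No genome or sequence table was used here.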

Additional observations from a re-analysis of the deposited data

Results flagged for a closer look

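For the 25 genes with per-library values, 100 groups of 4 libraries were screened for a library far from the other 3, and 6 were found where chance gives about 5 (1 in 20). PH02Gene41094 (DREB2C-like) had 119 FPKM in replicate 3 at 2d, with 123 to 124 in the others. PH02Gene01977 (DREB1A) had 0.0551 FPKM in replicate 4 at 2d and 0 in the others. PH02Gene41527 (ERF110) had 1.76 FPKM in replicate 1 at 2d, with 1.06 to 1.15 in the others. PH02Gene23620 (RAP2-6-like) had 1.99 FPKM in replicate 3 at 2d, with 3.17 to 3.40 in the others. PH02Gene38917 (factor 1-like) had 141 FPKM in replicate 1 at 2d, with 131 to 132 in the others. PH02Gene01037 (BBM1) had 36.4 FPKM in replicate 4 at 0d, with 38.6 to 38.7 in the others. The calls of these genes against 0d kept their direction with that library left out.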

How the results depend on the processing

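No named change that was called turned direction under any alternative, but the balance of members called higher and lower did: at 6d against 0d it was 13 and 20 as reported and 31 and 26 with adjusted p alone. Counts over the 67 members stayed within 1.5 times with DESeq2, the other scalings, counts divided by 4, limma on log2(FPKM + 0.1), fits of 2 times only, and each library left out, and they moved with the fold limit, the minimum and the pseudocount. With adjusted p alone, members called higher and lower were 29 and 32 at 2d, 29 and 30 at 20d (each against 0d), 24 and 25 at 6d against 2d, and 29 and 27 at 20d against 6d, so that the lead of higher calls at 6d against 2d (12 and 7 as reported) turned. With no minimum, they were 25 and 32 at 2d, 29 and 31 at 6d, 35 and 33 at 20d (16 and 18 as reported), 28 and 24 at 20d against 6d, 26 and 9 at 6d against 2d, and 91 over the 4 times. With a minimum of 5 FPKM, which leaves fewer genes, they were 4 and 9 at 2d, 3 and 7 at 6d, 7 and 8 at 20d, 4 and 2 at 6d against 2d, 7 and 6 at 20d against 6d, and 21 over the 4 times. Limma on log2(FPKM + 1), which shrinks low genes, called 9 higher at 2d, 6 at 6d against 2d and 6 at 20d against 6d. On log2(FPKM + 5) it called 5 higher at 2d, 2 higher and 9 lower at 6d, 7 higher at 20d, 2 and 1 at 6d against 2d, 2 and 5 at 20d against 6d, and 30 over the 4 times. Equal replicate numbers did not pair the libraries (correlations from -0.235 to 0.134 over 11339 genes), and with a replicate block the counts were 15 and 19 at 2d, 13 and 20 at 6d, and 16 and 18 at 20d; 1 named call was lost, that of PH02Gene38787 at 20d against 6d (4.0 fragments). The fit of 2 times only gives no test over the 4 times. Depth limits the DREB1/CBF genes: 10 of 14 were under the minimum, and differences between them were mostly not detectable at this depth.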
